A study of Homo sapiens with 24 samples.

Results

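The change that the aryl hydrocarbon receptor (AHR) ligand ITE made to the RNA of RCC4+VHL cells in normoxia was measured in 12 of the 24 libraries of the series. The members were chosen by their titles, 6 libraries of normoxia + ITE and 6 of normoxia + DMSO, and same-numbered replicates were treated as pairs. RCC4+VHL is a VHL-deficient renal carcinoma line in which VHL was restored by stable transfection of a plasmid, as a transfected clone, so every library carries that VHL. Normoxia + ITE cells were given 100 nM ITE, and normoxia + DMSO cells the vehicle at 0.1%, both for 6 h at 21% oxygen in phenol red-free medium with charcoal-stripped serum. Polyadenylated RNA was sequenced from 6 replicates of each group, which the study's methods call independent without naming the separate cultures, and p-values measure the spread between these samples. The comparison asks which functions and gene families respond to the ligand alone, without hypoxia.

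AHR is a transcription factor of the bHLH-PAS family that waits in the cytoplasm with HSP90 and other chaperones until a ligand binds. It then enters the nucleus, pairs with ARNT and binds DNA at xenobiotic response elements with the core GCGTG. Its best-known targets are enzymes that oxidise foreign compounds, such as the cytochromes P450 CYP1A1 and CYP1B1, and its own inhibitors AHRR and TIPARP. ARNT is also the partner of the hypoxia-inducible factors, which bind the related core ACGTG.

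Total counts ranged from 6898880 to 93851342 in normoxia + DMSO and from 5099464 to 48357647 in normoxia + ITE, so that 3 counts corresponded to between 0.032 and 0.588 counts scaled to a common library size (CPM, the unit of all levels below), a limit that covers counting error only. Of 23106 gene symbols, 11781 had 10 or more counts in at least 6 of the 12 libraries and were tested. The renal label fits 11 of 12 renal and renal carcinoma markers, which passed that filter, among them the kidney lineage factor PAX8 (227 to 277 CPM in normoxia + DMSO) and the mesenchymal filament VIM (2021 to 2314 CPM). CA12 did not pass. Of the markers of other cell types, 1 of 5 immune, 0 of 5 endothelial and 1 of 5 hepatocyte genes passed, and none of these was past the threshold for ITE. In RNA of whole cultures, fewer cells of a kind and less RNA per cell cannot be told apart.

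ITE raised 161 genes (1.37% of those tested) and lowered 94 (0.798%) at an adjusted p under 0.05 (edgeR quasi-likelihood test with the replicate number as a block, Benjamini-Hochberg adjustment over 11781 genes). At an unadjusted p under 0.05, 771 genes were higher (6.54%) and 769 lower (6.53%). The changes were small. The median log2 fold change was 0.31 among the 161 genes that rose and -0.33 among the 94 that fell, beside 0.0018 over all genes tested. Only 11 of the 161 rose by more than 1 on the log2 scale and 4 of the 94 fell by more than 1. The direction was the same in 6 of 6 pairs for 141 of the 161 and 86 of the 94, beside 4.23% and 3.86% of all genes tested that went up or down in 6 of 6 pairs. Every ITE library lay above every DMSO library for 56 genes (0.475% of those tested), 45 of them among the 161, and below for 23 (0.195%), 11 of them among the 94.

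The number of calls depended on the pairing. When the block was left out, 28 genes rose (0.238%) and 3 fell (0.0255%), all of them among the 161 and the 94. The 28 included CYP1B1, TIPARP, ALDH1A3, CYP27A1, SLC7A5, SLC3A2, STC2, SHISA2, CDK15, BBS12, FSD2, NFE2L2 and WSB1, and the 3 were CEBPB, CTIF and RCAN1. These 31 genes also passed in each of the 6 fits that left out 1 replicate pair and with offsets for GC content and transcript length. In a fit of all 24 libraries with the block, only 10 of the 161 and 1 of the 94 passed. Most of these 31 therefore did not pass there, though none changed direction. Every other gene described below as past the threshold passed only with the block. Of the 50 genes that rose and 39 that fell which the naming rule and the lists pick out, 31 and 21 passed in all 6 fits without a pair, and the losses of others are given beside them. Their direction did not change in any of those 6 fits.

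The AHR gene battery, a list of classical targets, responded in part. Of its 15 genes 8 were tested, 5 rose and 0 fell, with a median log2 fold change of 0.25. The share that rose was 62.5%, beside 1.37% of all genes tested. CYP1B1, a cytochrome P450 that oxidises polycyclic compounds and oestrogens, lies at chr2:38294116-38337044 on the minus strand of GRCh37. Its level was 51.1 to 73.3 CPM (median 58.2) in normoxia + DMSO and 252 to 405 CPM (median 335) in normoxia + ITE. All 6 ITE libraries stood above every DMSO library, and the log2 fold change was 2.51, with a standard error of 0.074 and an adjusted p of 7.90e-22 in edgeR. TIPARP, an ADP-ribosyltransferase that shuts off AHR, lies at chr3:156391024-156424559 on the plus strand. It was at 45.0 to 56.8 CPM (median 48.7) with DMSO and at 115 to 135 CPM (median 129) with ITE, again without overlap. Its log2 fold change was 1.35, with a standard error of 0.058 and an adjusted p of 2.02e-17 in edgeR.

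The other 3 battery genes that rose did so by less or at low levels. NFE2L2, the antioxidant factor NRF2, was at 156 to 172 CPM with DMSO and 184 to 210 CPM with ITE (log2 fold change 0.27, adjusted p = 0.000435 in edgeR), and its groups did not overlap. UGT1A6, which conjugates phenols to glucuronic acid, shares its last exons with the other UGT1A genes, so its assignment is uncertain. It rose by 0.24 on the log2 scale (adjusted p = 0.00673 in edgeR, lost without replicate 4, where the change was between 0.21 and 0.26 over the 6 fits). SERPINB2, an inhibitor of plasminogen activators, was at 0 to 1.06 CPM with DMSO and at 0.991 to 1.99 CPM with ITE (log2 fold change 1.81, standard error 0.47, adjusted p = 0.0308 in edgeR), a level near the 3-count limit of the shallow libraries, and its call was lost in 4 of the 6 fits that left out a pair.

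Several hallmarks of AHR activation were not seen. CYP1A1, usually the most inducible AHR target, had 2 counts in all over the 6 DMSO libraries and 1 over the 6 ITE libraries, and CYP1A2 had 0 in both. A further 5 battery genes were below the filter (ALDH3A1, GSTA2, CYP2S1, SCIN and EREG), with no more than 3 counts in any library. AHRR, the AHR repressor, was at 0.659 to 2.34 CPM with DMSO and 0.711 to 2.44 CPM with ITE (adjusted p = 0.950 in edgeR). NQO1, the quinone reductase of the battery, was higher in 6 of 6 pairs at 217 to 264 CPM against 243 to 286 CPM, and missed the threshold (log2 fold change 0.18, adjusted p = 0.0570 in edgeR). HES1 had a log2 fold change of -0.22 and did not pass.

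The receptor machinery did not pass the test in any member. All 17 genes for AHR, its partners, chaperones and coactivators were tested, with 0 calls in either direction and a median log2 fold change of 0.032. At the 2.16% of all genes tested that passed in either direction, a list of 17 would hold few calls or none. AHR itself was at 30.3 to 43.2 CPM with DMSO and at 30.6 to 40.4 CPM with ITE (log2 fold change 0.033, standard error 0.086, adjusted p = 0.917 in edgeR). ARNT was at 32.9 to 44.1 and 29.3 to 41.4 CPM, higher in 3 of 6 pairs. The neuronal paralogue ARNT2 had the largest estimate of the list, 1.06, and did not pass.

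A panel of AHR targets used for RT-qPCR rose in 5 of 5 genes, beside 1.37% of all genes tested, with a median log2 fold change of 1.14. Besides CYP1B1 these were ALDH1A3, CYP27A1, ASB2 and BMF. The study had used this panel to follow ITE in the same cell line at 6 h, so its direction here is not independent evidence. ALDH1A3 makes retinoic acid from retinal and lies at chr15:101417919-101456831 on the plus strand of GRCh37. Its level was 11.1 to 13.3 CPM (median 12.7) with DMSO and 24.8 to 33.7 CPM (median 32.8) with ITE (log2 fold change 1.33, standard error 0.10, adjusted p = 4.84e-11 in edgeR). CYP27A1, the mitochondrial sterol 27-hydroxylase, at chr2:219646472-219680016 on the plus strand, went from 6.65 to 12.6 CPM (median 9.71) to 14.8 to 23.2 CPM (median 21.8). Its log2 fold change was 1.14, with a standard error of 0.12 and an adjusted p of 1.14e-07 in edgeR. The groups of both genes did not overlap.

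ASB2 and BMF overlapped between groups and were separated only within pairs. ASB2, which brings substrates to a cullin ubiquitin ligase, was at 5.37 to 15.97 CPM with DMSO and 12.4 to 23.9 CPM with ITE (log2 fold change 0.95, standard error 0.13, adjusted p = 1.88e-05 in edgeR). BMF, a BH3-only protein that promotes apoptosis, was at 1.04 to 4.93 and 2.13 to 8.52 CPM (log2 fold change 1.08, standard error 0.25, adjusted p = 0.0125 in edgeR). Both were higher in 6 of 6 pairs, and the call for BMF was lost without replicate 4 and without replicate 6, over a range of 0.85 to 1.21.

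**Figure D1:**
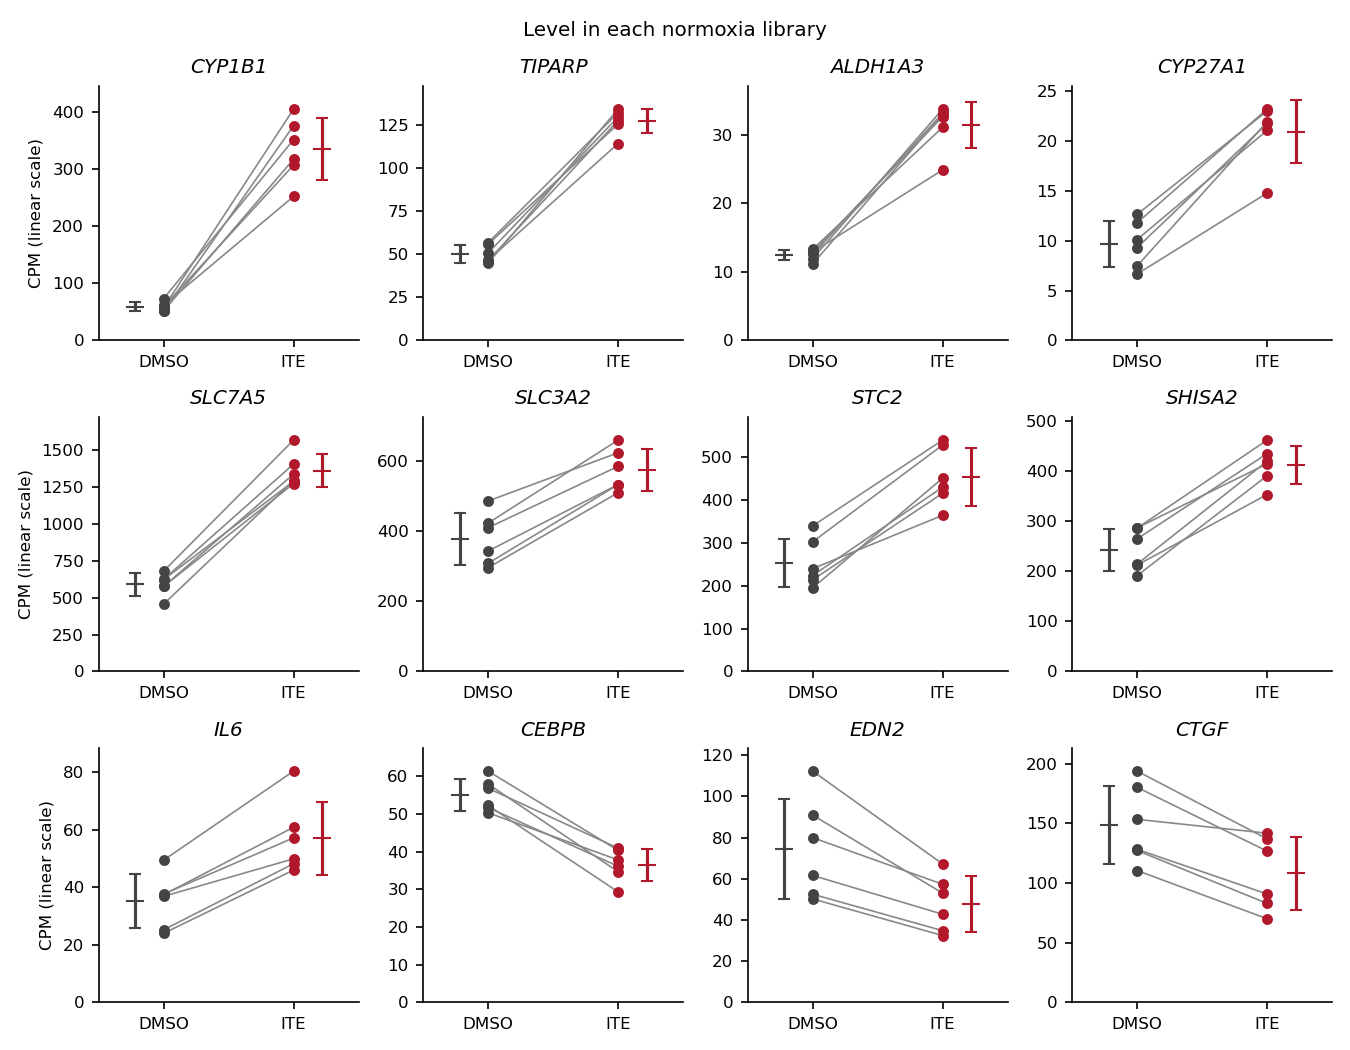
Level in CPM (linear vertical axis from 0) of 12 genes in each normoxia library with DMSO (grey) or ITE (red), lines joining same-numbered replicates and bars giving the mean and SD of 6 libraries. CYP1B1, TIPARP, ALDH1A3, CYP27A1, SLC7A5, SLC3A2, STC2 and SHISA2 rose and CEBPB fell without overlap between groups, while IL6, EDN2 and CTGF overlapped and moved the same way in 6 of 6 pairs.

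For the strongest responders, the sequence just upstream of the start site shows whether the AHR core lies there. Promoter windows of 300 bases (mostly before each RefSeq start and ending 50 bases after it, GRCh38.p14, in the direction of the gene) were on hand for 9399 of the 11781 genes tested, as 13802 windows, but not for CYP1B1. The windows of TIPARP (the most upstream of its 3 starts), ALDH1A3, SLC7A5, SLC3A2 (the most upstream of its 3 starts), STC2 and SHISA2 are printed because they belong to clear rises described here, the AHR feedback enzyme, the retinoic acid enzyme, both subunits of an amino acid transporter, a secreted glycoprotein and a protein that retains receptors in the endoplasmic reticulum. Capitals mark GCGTG on either strand, so that CACGC is a match on the opposite strand.
TIPARP promoter at chr3:156674340-156674639 (plus strand): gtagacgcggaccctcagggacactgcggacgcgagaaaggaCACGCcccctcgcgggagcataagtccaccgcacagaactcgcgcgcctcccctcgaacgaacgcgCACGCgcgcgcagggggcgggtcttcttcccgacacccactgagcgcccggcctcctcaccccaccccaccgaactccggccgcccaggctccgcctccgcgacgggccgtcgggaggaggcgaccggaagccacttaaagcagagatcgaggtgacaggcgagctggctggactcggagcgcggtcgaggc
ALDH1A3 promoter at chr15:100879581-100879880 (plus strand): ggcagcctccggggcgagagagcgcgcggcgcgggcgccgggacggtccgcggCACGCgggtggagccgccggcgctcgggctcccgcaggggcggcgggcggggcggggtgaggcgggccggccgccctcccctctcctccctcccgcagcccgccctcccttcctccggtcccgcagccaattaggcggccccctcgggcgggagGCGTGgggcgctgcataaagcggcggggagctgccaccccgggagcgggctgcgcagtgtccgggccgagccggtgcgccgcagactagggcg
SLC7A5 promoter at chr16:87869458-87869757 (minus strand): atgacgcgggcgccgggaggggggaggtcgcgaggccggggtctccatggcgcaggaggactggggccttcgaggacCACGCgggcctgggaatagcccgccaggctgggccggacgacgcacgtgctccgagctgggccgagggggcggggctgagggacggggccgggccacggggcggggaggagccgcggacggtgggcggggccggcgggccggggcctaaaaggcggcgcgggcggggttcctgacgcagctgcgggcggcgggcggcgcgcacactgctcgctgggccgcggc
SLC3A2 promoter at chr11:62855859-62856158 (plus strand): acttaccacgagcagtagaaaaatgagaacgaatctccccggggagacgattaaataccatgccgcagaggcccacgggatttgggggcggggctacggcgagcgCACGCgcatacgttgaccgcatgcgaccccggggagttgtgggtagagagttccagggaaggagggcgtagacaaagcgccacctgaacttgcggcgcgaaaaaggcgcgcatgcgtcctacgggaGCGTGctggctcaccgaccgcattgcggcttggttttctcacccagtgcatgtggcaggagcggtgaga
STC2 promoter at chr5:173328365-173328664 (minus strand): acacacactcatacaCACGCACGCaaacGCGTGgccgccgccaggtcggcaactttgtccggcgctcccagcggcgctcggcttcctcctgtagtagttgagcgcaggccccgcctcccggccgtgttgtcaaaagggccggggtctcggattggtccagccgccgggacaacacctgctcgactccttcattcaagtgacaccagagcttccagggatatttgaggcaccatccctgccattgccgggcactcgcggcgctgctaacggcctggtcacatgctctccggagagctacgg
SHISA2 promoter at chr13:26051967-26052266 (minus strand): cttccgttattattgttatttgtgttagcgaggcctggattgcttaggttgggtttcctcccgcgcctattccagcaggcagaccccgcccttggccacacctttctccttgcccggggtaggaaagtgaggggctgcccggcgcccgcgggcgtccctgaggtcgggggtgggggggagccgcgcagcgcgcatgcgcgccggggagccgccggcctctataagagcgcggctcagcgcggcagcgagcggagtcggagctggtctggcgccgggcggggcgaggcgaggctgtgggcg

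The printed TIPARP window held 2 matches, ALDH1A3 2, SLC7A5 1, SLC3A2 2, STC2 3 and SHISA2 0. The other 2 windows of TIPARP held 0, and those of SLC3A2 held 1 and 0. In the STC2 window, 2 matches on the opposite strand share a base, and 1 of the 3 also fits the longer form TNGCGTG. CYP27A1 had 1 window and it held none. GCGTG was found in 45.7% of the 219 windows of genes that rose, in 44.3% of the 115 of genes that fell and in 49.1% of all 13802, and TNGCGTG in 8.68%, 5.22% and 6.97%. The related core ACGTG was in 19.6%, 20% and 25.6%. A match is a description of the letters and not a binding site, and distal sites lie outside these windows.

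The subunits of the large neutral amino acid transporter rose together. SLC7A5 carries leucine, tryptophan and other large amino acids, at chr16:87863629-87903113 on the minus strand of GRCh37, and SLC3A2 is the heavy chain that holds it at the membrane, at chr11:62623476-62656352 on the plus strand. SLC7A5 was at 456 to 679 CPM (median 599) with DMSO and at 1272 to 1567 CPM (median 1315) with ITE (log2 fold change 1.22, standard error 0.055, adjusted p = 6.85e-17 in edgeR). SLC3A2 was at 296 to 487 CPM (median 377) and 510 to 660 CPM (median 560) with ITE, up by 0.62 (log2 fold change, standard error 0.054, adjusted p = 1.77e-09 in edgeR). Neither gene overlapped between groups. Of 17 amino acid transporter genes tested, these 2 rose (11.8%) and 0 fell, with a median log2 fold change of 0.035. Over all 197 solute carriers tested, 3 rose (1.52%) and 1 fell (0.508%), near the 1.37% and 0.798% of all genes tested. The third was the glucose carrier SLC2A1 (121 to 171 and 160 to 204 CPM, log2 fold change 0.34), and the haem carrier SLC48A1 fell by 0.36 on the log2 scale, a call lost in 4 of the 6 fits without a pair and with the GC and length offsets.

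Amino acid transporters are also targets of the integrated stress response, the ATF4 programme that answers a shortage of amino acids or misfolded protein, and its members moved in opposite directions. Of 20 genes tested 2 rose (STC2 and PPP1R15A) and 2 fell (CEBPB and TRIB3), with a median log2 fold change of -0.061. Each direction held 10% of the list, beside 1.37% and 0.798% of all genes tested. STC2, a secreted glycoprotein, at chr5:172741726-172755450 on the minus strand, was at 195 to 339 CPM (median 232) with DMSO and at 364 to 539 CPM (median 440) with ITE. Its groups did not overlap and its log2 fold change was 0.87, with a standard error of 0.059 and an adjusted p of 4.95e-12 in edgeR. PPP1R15A, the phosphatase subunit that ends the response, rose by 0.49 on the log2 scale (62.5 to 134 and 109 to 165 CPM, adjusted p = 6.55e-06 in edgeR).

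CEBPB, a bZIP transcription factor of inflammation and differentiation at chr20:48807367-48809205 on the plus strand, was the clearest fall. It was at 50.3 to 61.4 CPM (median 54.5) with DMSO and at 29.3 to 40.9 CPM (median 36.96) with ITE, without overlap. Its log2 fold change was -0.60, with a standard error of 0.069 and an adjusted p of 7.33e-07 in edgeR. TRIB3, a pseudokinase induced late in the stress response, fell by 0.26 on the log2 scale, a call lost with the GC and length offsets. The response's other known members did not pass, with log2 fold changes of -0.023 for ATF4, -0.082 for asparagine synthetase ASNS and -0.21 for DDIT3. None of the 19 cytosolic tRNA synthetases tested was called, with a median of 0.033.

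**Figure D2:**
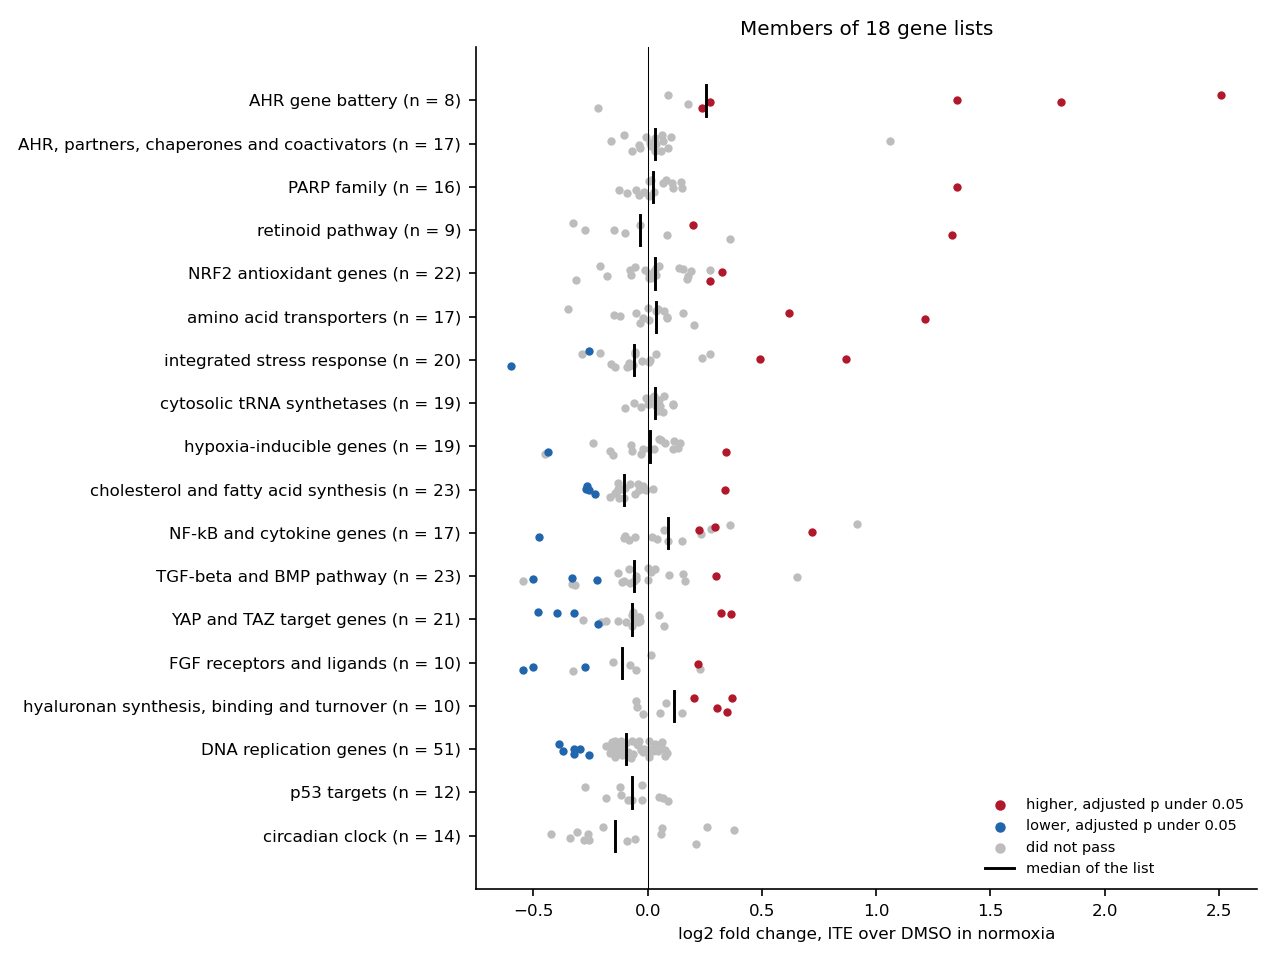
Log2 fold change of ITE over DMSO in normoxia (horizontal axis) of each tested member of 18 gene lists (rows), with members past the threshold in red (higher) or blue (lower) and the list's median as a black bar. The AHR battery has 5 of 8 members in red, DNA replication genes have 6 of 51 in blue, and the integrated stress response has members on both sides. The rows for DNA replication, YAP and TAZ targets, FGF and hyaluronan were drawn up after the values were seen.

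Detoxifying and antioxidant families moved in few members. For all genes tested, the shares called were 1.37% higher and 0.798% lower. Of 9 cytochrome P450 genes tested (46 were below the filter), only CYP1B1 and CYP27A1 rose and 0 fell. Aldehyde dehydrogenases had 2 of 13 higher. Besides ALDH1A3 this was ALDH1A1, at 842 to 1569 CPM with DMSO and 862 to 1864 CPM with ITE (log2 fold change 0.20), whose call was lost in 4 of the 6 fits without a pair and with the GC and length offsets. Of the retinoid pathway, 9 genes were tested and these 2 alone rose. Of 22 NRF2 antioxidant genes 2 rose, NFE2L2 itself and the thioredoxin reductase TXNRD1 (430 to 581 and 547 to 686 CPM, log2 fold change 0.32, adjusted p = 9.99e-05 in edgeR), while GCLM (0.048) and HMOX1 (-0.21) did not pass. Among glutathione S-transferases 1 of 11 rose, GSTP1 (log2 fold change 0.23, from 1489 to 1678 CPM to 1735 to 2049 CPM), a call lost without replicates 2, 4 or 6. No aldo-keto reductase passed (0 of 5), and of 26 ABC transporters only ABCC9 rose (0.29, lost without replicates 1, 4 or 5). Of the 16 PARP family genes tested TIPARP alone rose, and the other 15 had log2 fold changes between -0.12 (PARP10) and 0.15 (PARP16).

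Secreted signals and cytokines responded in both directions. Over all genes tested, 1.37% rose and 0.798% fell. IL6, the acute-phase cytokine at chr7:22765503-22771621 on the plus strand, was at 23.98 to 49.4 CPM (median 37.1) with DMSO and 45.9 to 80.3 CPM (median 53.5) with ITE. The groups overlapped, and it was higher in 6 of 6 pairs (log2 fold change 0.72, standard error 0.071, adjusted p = 2.69e-08 in edgeR). Of 17 NF-kB and cytokine genes tested 3 rose, IL6, the apoptosis inhibitor BIRC3 (0.30) and the chemokine IL8 (0.23, lost without replicates 2 or 6), and IL11 fell by 0.48 on the log2 scale, a call lost in 4 of the 6 fits without a pair. NFKBIA, a target gene of NF-kB, had a log2 fold change of 0.017 and did not pass, and the activity of NF-kB was not tested. EDN2, a vasoconstrictor peptide at chr1:41944446-41950354 on the minus strand, had the smallest p of the genes that fell, at 50.3 to 112 CPM (median 70.8) with DMSO and 32.5 to 67.3 CPM (median 48.0) with ITE (log2 fold change -0.62, standard error 0.061, adjusted p = 2.06e-08 in edgeR). Interferon-stimulated genes had 2 of 17 higher, among them IFIT3 (0.38, lost without replicates 4, 5 or 6).

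Developmental and matrix pathways had few calls, from 1 to 4 in a list, where 1.37% of all genes tested rose and 0.798% fell. SHISA2, which holds immature WNT and FGF receptors in the endoplasmic reticulum, was at 191 to 287 CPM (median 240) with DMSO and 353 to 462 CPM (median 417) with ITE, without overlap (log2 fold change 0.78, standard error 0.055, adjusted p = 1.61e-11 in edgeR). It was the only one of 20 WNT pathway genes called. In the Notch pathway 1 of 15 rose, the fringe glycosyltransferase MFNG (0.77), which was lost in 5 of the 6 fits without a pair. The TGF-beta and BMP list had SMAD3 higher (0.30, lost without replicate 4) and 3 of 23 genes lower, among them the BMP target ID1 (-0.50) and the latent TGF-beta binding protein LTBP2 (-0.33). LTBP2 did not pass in 5 of the 6 fits without a pair or with the GC and length offsets. Renal lineage factors had 2 of 11 markers higher, among them PAX2 (log2 fold change 0.44, adjusted p = 0.00184 in edgeR), while PAX8 was lower in 6 of 6 pairs by 0.12 and did not pass. The BBSome list, which serves the cilium, had 1 of 11 genes higher, the chaperonin BBS12 (4.73 to 9.23 and 11.4 to 23.9 CPM, log2 fold change 0.98, adjusted p = 5.64e-05 in edgeR).

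Other lists, drawn up after the values were seen, hold rises and falls and carry no weight as evidence. Among all genes tested, 1.37% rose and 0.798% fell. Of 21 target genes of YAP and TAZ, the factors of the Hippo pathway, 2 rose (CCDC80 and MYOF) and 4 fell (CTGF, ANKRD1, NUAK2 and AMOTL2). The call for NUAK2 was lost without replicate 3, and that for AMOTL2 without replicate 6 and with the GC and length offsets. CTGF, a matricellular protein, was at 111 to 194 CPM with DMSO and 70.1 to 142 CPM with ITE, lower in 6 of 6 pairs with overlapping groups (log2 fold change -0.48, adjusted p = 1.48e-06 in edgeR). CYR61, its close relative and an equally well-known YAP target, was at 925 to 1060 and 982 to 1110 CPM and did not pass. Of 10 FGF receptors and ligands tested, the receptors FGFR3 (-0.50), FGFR2 (-0.55) and FGFR4 (-0.28) fell and the ligand FGF2 rose (0.22). The call for FGFR4 was lost in 4 of the 6 fits without a pair and with the GC and length offsets, and that for FGF2 without replicate 2. Of 10 genes for hyaluronan synthesis, binding and turnover 4 rose, the proteoglycan VCAN (0.37), the receptor CD44 (0.30), the synthase HAS3 (0.35) and the surface hyaluronidase TMEM2 (0.20). The last 2 were lost in 4 and 3 of the 6 fits without a pair.

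In a list of DNA replication genes, also drawn up after the values were seen, the calls were falls. Of 51 genes 6 fell and 0 rose, beside 0.798% and 1.37% of all genes tested. The median log2 fold change was -0.095, and 38 of the 51 were negative, as were 49.5% of all genes tested. Because the list was drawn up from these values, its counts and signs carry no weight as evidence. POLD1, the catalytic subunit of polymerase delta, was at 75.6 to 90.0 CPM with DMSO and 52.2 to 77.7 CPM with ITE (log2 fold change -0.37, adjusted p = 7.56e-05 in edgeR). UHRF1 (-0.32), TONSL (-0.39), UNG (-0.32), MCM10 (-0.30, lost without replicate 5) and CDT1 (-0.26, lost with the GC and length offsets) were the others. In the cell cycle list, 2 of 27 genes fell and 1 rose. Cyclin D1, CCND1, was at 162 to 285 CPM and 131 to 230 CPM (log2 fold change -0.35, adjusted p = 1.69e-05 in edgeR), the S-phase factor E2F1 fell by 0.34 on the log2 scale, and the cyclin-dependent kinase inhibitor CDKN1B rose by 0.25, a call lost in 4 of the 6 fits without a pair. None of the 12 p53 targets tested was called.

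Sterol and fatty acid synthesis had more falls than rises. Of 23 genes tested 4 fell (MVD, HMGCS1, SREBF1 and FASN), beside the 0.798% of all genes tested, and 21 had a negative log2 fold change, beside 49.5% of all, with a median of -0.10. INSIG1 rose (0.34, adjusted p = 9.99e-05 in edgeR). HMGCS1, the enzyme before HMG-CoA reductase, was at 183 to 241 CPM with DMSO and 151 to 203 CPM with ITE (log2 fold change -0.23, adjusted p = 0.00517 in edgeR). INSIG1, the protein that keeps SREBP in the endoplasmic reticulum, was at 134 to 271 and 176 to 313 CPM. MVD, SREBF1 and FASN lost their calls with the GC and length offsets, and SREBF1 and FASN also without replicate 6.

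A list of common HIF and AHR targets was chosen by the study on these libraries, so its direction here is not independent evidence. All 14 genes had positive log2 fold changes with a median of 0.36, and 11 passed with the block and 1, WSB1, without it. Of the 11, 6 passed in all 6 fits without a pair. In the hypoxia libraries the median change of the list with ITE was -0.00096, beside 0.0079 over all genes tested. WSB1, a SOCS-box ubiquitin ligase subunit, was at 53.6 to 60.1 CPM with DMSO and 66.5 to 77.8 CPM with ITE (log2 fold change 0.36, adjusted p = 0.000139 in edgeR). The glucocorticoid receptor NR3C1 (61.1 to 76.8 and 79.2 to 92.6 CPM, log2 fold change 0.31) and the NF-kB adaptor CARD10 (0.29) also did not overlap. PAG1, PADI1 and the clock factor ARNTL did not pass, with log2 fold changes of 0.43, 0.23 and 0.38. Of 19 hypoxia-inducible genes tested, SLC2A1 rose and adrenomedullin ADM fell by 0.44 on the log2 scale, with a median of 0.012 and the call for ADM lost without replicate 6.

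Among the largest changes outside these groups, several were in genes near the limit of detection. CDK15, a little-studied cyclin-dependent kinase, was at 2.56 to 9.76 CPM with DMSO and at 9.10 to 18.1 CPM with ITE (log2 fold change 1.41, standard error 0.17, adjusted p = 1.06e-06 in edgeR). FSD2 (0.393 to 0.768 and 1.15 to 2.92 CPM, log2 fold change 1.86) and FAM43A (0.220 to 1.18 and 1.29 to 3.84 CPM, 1.73) did not overlap between groups. PLEKHG4B rose by 1.29 from a median of 0.986 CPM and was lost in 4 of the 6 fits without a pair. Of the falls, the laminin receptor subunit ITGB4 went from 1.33 to 3.12 CPM to 0.128 to 0.995 CPM without overlap (log2 fold change -1.74, standard error 0.41, adjusted p = 0.0155 in edgeR), a call lost without replicate 2 or replicate 6. The sulfotransferases of glycosaminoglycans CHST2 (-1.13) and CHST11 (-0.66) fell, CHST2 with its call lost in 5 of the 6 fits and with the offsets. RAPGEF3, a cyclic AMP sensor (-0.88), the small GTPase GEM (-0.98, lost in 4 of the 6 fits) and the translation factor CTIF (15.6 to 24.8 and 8.46 to 14.7 CPM, log2 fold change -0.71, adjusted p = 0.000145 in edgeR) also fell. KLHL30 (-0.57), SEMA7A (-0.57), BTBD11 (-0.55) and SMTNL2 (-0.50) were each lost in at least 3 of the 6 fits, and KLHL30, SEMA7A and SMTNL2 also with the offsets.

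Some large falls rest on genes whose reads may be shared. ATF6B (-0.65) lies in the major histocompatibility region, which has alternative copies in the reference, and NBPF10 (-0.64) belongs to a family of near-identical genes, so both are uncertain, and their calls were lost without replicate 3, among others. GTPBP6 (-1.85) and KIFC1 (-1.68) were named after their values were seen. GTPBP6, in a region shared by the sex chromosomes, spanned 0.524 to 18.7 CPM within normoxia + DMSO and was lower in 4 of 6 pairs, and KIFC1 spanned 2.10 to 28.7 CPM and was lower in 5 of 6. Each lost its call in 3 of the 6 fits without a pair.

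Most families showed no call or 1. Named by the symbols of their genes, 382 ZNF zinc finger genes tested had 0 calls in either direction, as had 23 HOX genes, 12 Kruppel-like factors, 16 collagens, 10 keratins, 45 proteasome subunits and 34 LINC RNA genes. At the 2.16% of all genes tested that passed in either direction, small families would hold few calls. Of 80 cytosolic ribosomal proteins 74 had positive log2 fold changes, beside 50.5% of all genes tested, with a median of 0.086, and 1 passed (RPL9, lost with the offsets and without replicates 2, 3 or 6). Immediate early genes had 2 of 18 lower, CTGF and DUSP1 (-0.23, lost without replicate 5 or 6), MAPK feedback genes 0 of 12 and clock genes 0 of 14.

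Genes that fell differed from those that rose in base composition. The median GC content of the longest transcript was 44.3% for genes that rose, 58.1% for genes that fell and 47.5% over all genes tested. With offsets for GC content and transcript length, 167 genes were higher (1.42%) and 57 lower (0.484%), which kept 139 of the 161 and 52 of the 94. The part of GC content in the falls was not tested beyond this fit. Depth also differed, with a median total of 17551322 in normoxia + DMSO and 7471072.5 in normoxia + ITE. After all libraries were thinned to 5099464 counts, 127 genes were higher and 86 lower.

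The hypoxia libraries share no sample with these 12 and give the response to ITE a second time, at 0.5% oxygen. Some are shallower, with 770094 counts in hypoxia + DMSO replicate 2 and 1357702 in hypoxia + ITE replicate 1. There 3 counts correspond to 3.90 and 2.21 CPM, so hypoxia changes of genes at a few CPM or less, such as FSD2, are uncertain. In them 1 gene was higher, CYP1B1 (0.00849% of 11781), and 0 were lower at an adjusted p under 0.05 in edgeR, while 118 (1%) and 76 (0.645%) passed an unadjusted p under 0.05 and DESeq2 called 6 and 1. Of the 161 genes that rose in normoxia 110 were positive in hypoxia (68.3%, beside 51.1% of all genes tested), and of the 94 that fell 60 were negative (63.8%, beside 48.9%). Among the rises the share was larger for the larger changes. All 11 genes that rose by more than 1 and all 15 that rose by between 0.5 and 1 were positive in hypoxia, with median log2 fold changes of 1.35 and 0.48 there, and of the 135 smaller rises 84 were (62.2%). Of the 21 genes that fell by more than 0.5, 13 were negative in hypoxia (61.9%), with a median of -0.056, and of the 73 smaller falls 47 were (64.4%), with a median of -0.057.

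Side by side, the log2 fold changes in normoxia and hypoxia were 2.51 and 2.30 for CYP1B1, 1.33 and 0.997 for ALDH1A3, 1.14 and 1.35 for CYP27A1, 1.22 and 0.87 for SLC7A5, 0.62 and 0.63 for SLC3A2, and 0.78 and 0.85 for SHISA2. They were 1.35 and 0.58 for TIPARP, 0.87 and 0.34 for STC2, 0.36 and -0.24 for WSB1, and -0.60 and -0.40 for CEBPB. The difference between oxygen levels did not pass for any of the 11781 genes (0 in edgeR with and without the block and 0 in DESeq2, with 233 higher, 1.98%, and 123 lower, 1.04%, at an unadjusted p under 0.05). It was -0.76 on the log2 scale for TIPARP, -0.53 for STC2 and -0.60 for WSB1, each at an adjusted p = 0.885 in edgeR. The standard error of the CYP1B1 change was 0.21 in the hypoxia libraries and 0.074 in the normoxia libraries, and fewer calls in hypoxia do not show a smaller response.

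**Figure D3:**
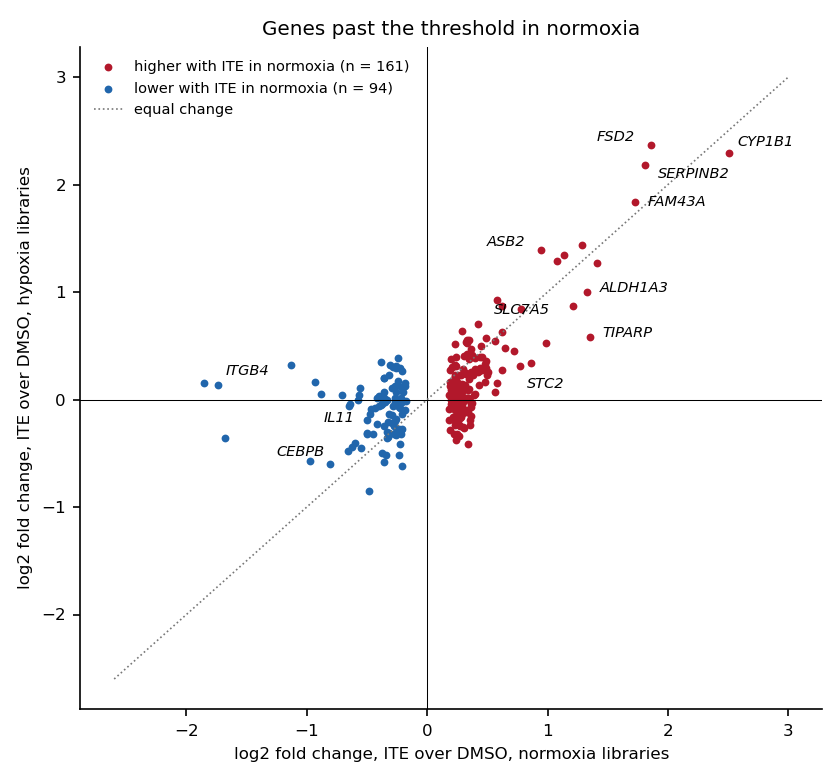
Log2 fold change of ITE over DMSO in the hypoxia libraries (vertical axis) against that in the normoxia libraries (horizontal) for the 161 genes higher (red) and 94 lower (blue) in normoxia, with a dotted line of equal change. The 11 genes that rose by more than 1 all lie above 0 in hypoxia, between 0.58 and 2.37 (FSD2, a gene of low level). The genes that fell scatter on both sides of 0.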

How the data were processed

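RNA-seq gene counts of 12 normoxia libraries (6 with ITE, 6 with DMSO) were analysed, and 12 hypoxia libraries served for comparison. The authors deposited raw counts per gene symbol and library, not normalised. According to the methods and labels, reads were trimmed with Trim Galore 0.3.3, aligned to GRCh37 with HISAT2 (2.05 in the labels, which the methods punctuate differently), cleared of reads that did not map uniquely and counted with HTSeq 0.5.4p3 in intersection-strict mode. The strand setting of the counting is not given in the sources used here, so reads of overlapping antisense genes may be counted together.

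Groups came from the sample labels. Genes with 10 or more counts in at least 6 of the 12 libraries were normalised by TMM and tested two-sided with edgeR 4.0.16 (quasi-likelihood, R 4.3.3), with the replicate number as a block and Benjamini-Hochberg adjustment over all genes tested at a threshold of 0.05. Log2 fold changes kept the default prior count of edgeR, and a prior count of 2 served only for the correlations between same-numbered libraries. The biological coefficient of variation was 8.21% with the block and 12.7% without. Alternatives were DESeq2 1.42.0, limma-voom 3.58.1, other normalisations, filters, thresholds and depths, no block, all 24 libraries in the fit, and leaving out each pair, with offsets for GC content and length added after seeing the data.

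The libraries, the blocked fit, the lists and the naming rule were chosen with earlier results of these data known, and 4 lists after the values were seen. Genes named were the largest called rises and falls, up to 15 of each, if their average reached 1 CPM and all 6 pairs moved alike, up to 4 members per list or family by p, and fixed AHR genes. XIST and Y-linked genes were left out, and other genes are named after their values were seen. Deviations from the group mean correlated between same-numbered libraries by 0.273, 0.261, -0.001, 0.203, 0.414 and 0.217 for replicates 1 to 6, over 0.1 in 5 of 6 pairs. The correlation with another number was nearly the same for replicate 2 (0.260) and higher for replicate 3 (0.110), so the data do not show pairing for these 2. The block was kept because the comparison is defined by same-numbered pairs.

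On simulated counts for this comparison (11781 genes, 200 changed), recovery was 47.8% for log2 changes of 0.3, 85.1% for 0.5 and 89.4% for 1. Of its calls 0.671% were false. These counts were drawn from a fit with the replicate block, so pairing was built in. The simulation therefore cannot show how many calls would be false where the pairing is absent. Coordinates of genes are from GENCODE lifted to GRCh37 and promoter sequences from RefSeq GRCh38.p14. ChIP-seq data were not analysed here. Some members of the lists are counted but not reported here by name.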

Additional observations from a re-analysis of the deposited data

Results flagged for a closer look

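Among 188 groups of 6 libraries examined (each group of each named gene, and the total counts), 11 held a library that stood apart from the other 5 by Dixon's criterion, where chance alone gives about 9.4. Replicate 5 accounts for most of them. ALDH1A3 was lowest in normoxia + ITE replicate 5 at 24.8 CPM, and CYP27A1 was also lowest there at 14.8 CPM. In normoxia + DMSO replicate 5, BBS12 was lowest at 4.73 CPM, and INSIG1 (271 CPM), E2F1 (99.7 CPM), TRIB3 (200.2 CPM) and MVD (145 CPM) were highest. TONSL was lowest in normoxia + DMSO replicate 4 at 39.0 CPM, ITGB4 highest in normoxia + DMSO replicate 2 at 3.12 CPM, and CHST2 lowest in normoxia + ITE replicate 3 at 0.429 CPM. The total of normoxia + ITE replicate 5, 48357647 counts, was far above the other 5 of its group.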

How the results depend on the processing

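The counts of genes higher and lower were 161 and 94 with the replicate block. Without the block they were 28 and 3, and with all 24 libraries in the fit and the block 10 and 1. A test against a log2 fold change of 0.2 gave 29 and 12, and an adjusted p under 0.01 gave 94 and 46. Without a filter on low counts 152 genes were lower, and with the GC and length offsets 57. Leaving out each replicate pair in turn gave 105 to 172 higher (105 without replicate 6) and 50 to 98 lower (62 without replicate 2, 50 without replicate 6), and 162 and 87 without replicate 3. In hypoxia, DESeq2 called 6 higher and 1 lower. DESeq2 (180 and 98), limma-voom (179 and 94), sample quality weights (197 and 119), other normalisations (151 to 163 and 93 to 105) and thinned libraries (127 and 86) stayed within 1.5 times. Of the values of named genes under these settings 1354 kept direction and side of the threshold, 371 no longer passed, 7 newly passed and 5 changed sign. The last were the AHR log2 fold change (-0.048 to 0.144 over the fits without a pair, -0.003 without replicate 2) and the AHRR log2 fold change (-0.124 to 0.438, -0.122 without replicate 5, -0.083 without replicate 6), which had not passed. Where calls were lost, the cause was not tested. In the shallowest normoxia library 3 counts correspond to 0.588 CPM, which limits FSD2, FAM43A, SERPINB2 and ITGB4.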

Other observations

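Some of the best-separated changes lie outside the groups above and were named after their values were seen. TPRA1, a membrane protein, was at 49.9 to 71.3 CPM with DMSO and 79.7 to 103 CPM with ITE, without overlap. Its log2 fold change was 0.62, with a standard error of 0.058 and an adjusted p of 1.05e-08 in edgeR. In the hypoxia libraries its change was 0.87. KIAA1033, a subunit of the endosomal WASH complex, was at 42.2 to 56.0 and 64.7 to 83.4 CPM (log2 fold change 0.58), and the kinase RIPK4 at 25.6 to 32.2 and 41.8 to 51.3 CPM (0.62), also without overlap. These 3 passed without the replicate block too.

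A few more genes, taken from no list and picked with their values known, passed with the block only. The insulin receptor substrates IRS1 (log2 fold change -0.26) and IRS2 (-0.41) were lower in 6 of 6 pairs, as was the ephrin receptor EPHA2 (-0.27), while its ligand EFNA1 (0.43) and the EGF receptor ligand TGFA (0.25) were higher in 6 of 6 pairs and PDGFB (0.56) in 5 of 6. The call for IRS1 was lost whichever pair was left out and with the GC and length offsets, that for EPHA2 with the offsets, that for PDGFB in 4 of the 6 fits without a pair and that for HAVCR1 without replicate 5. HAVCR1, the kidney injury molecule of tubular cells, was at 134 to 215 CPM with DMSO and 179 to 227 CPM with ITE (log2 fold change 0.24, adjusted p = 0.00669 in edgeR).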
